A study of Mus musculus with 7 samples.

Results

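The nuclear genes for subunits of the respiratory chain and the ATP synthase were followed through the differentiation of G1E-ER4 cells with and without DTPA. Members were chosen by symbol: Sdha, Sdhb, Sdhc and Sdhd, and every symbol starting with Ndufa, Ndufb, Ndufc, Ndufs, Ndufv, Uqcr, Cox4, Cox5, Cox6, Cox7, Cox8 or Atp5, without the 8 Ndufaf assembly factors and the 14 symbols that contain -ps. This took 89 of the 55367 symbols in the expression tables. GENCODE M21 annotates 85 of the 89 as protein-coding. The other 4 are processed pseudogenes, namely Ndufa11b, Ndufb4c, Ndufs6b and Cox6c2, and they stay in the totals but in no complex. By the role of their proteins, 36 members were placed in complex I, 4 in complex II, 8 in complex III, 20 in complex IV and 17 in complex V. Ndufa4 and its relative Ndufa4l2 carry a complex I name and were placed with complex IV, as was Cox7a2l.

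G1E-ER4 is a clonal mouse erythroid line derived from embryonic stem cells without functional GATA-1, and it carries a GATA-1 protein joined to the hormone-binding part of the oestrogen receptor, so estradiol starts its maturation. All 7 libraries came from this line, grown with erythropoietin and Kit ligand-conditioned medium. The DTPA group held 3 biological replicates taken after 24 h with 100 nM β-estradiol and 50 µM DTPA, a metal chelator given from the start of differentiation to lower zinc. The control group held 3 biological replicates taken after 24 h with 100 nM β-estradiol and no DTPA. The 0 h group was 1 library from undifferentiated cells that had received neither agent, and it has no replicate. DTPA against control therefore compares the effect of the chelator in differentiating cells, and control against 0 h compares time and estradiol together. Expression was deposited as TPM, a relative abundance scaled by gene length and by the total of each library.

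The estimated depth was 19.78 to 21.21 M reads on genes under DTPA, 17.67 to 18.61 M in controls and 17.6 M at 0 h. The members tested between DTPA and control had between 5 and 38886 estimated reads in a library, and Cox6c2 was the lowest. All 11 erythroid markers examined were detected, and their summed TPM was 64199 to 82308 under DTPA, 55299.8 to 59410.3 in controls and 13239.6 at 0 h. Between DTPA and control, 3 of these markers were called higher and 6 lower. Gata1 was among those lower, with 1305 ± 118 TPM under DTPA and 3164 ± 93.1 TPM in controls (SD, n = 3 each), and its symbol may take reads of the fusion construct. The 7 megakaryocyte markers summed to 27.7 to 35.4 TPM under DTPA, 7.02 to 10.7 TPM in controls and 36.2 TPM at 0 h. The 8 myeloid and mast cell markers summed to 3.62 to 5.8 TPM under DTPA, 3.41 to 3.86 TPM in controls and 14.9 TPM at 0 h, and the 5 lymphoid markers to at most 2.82 TPM in any library. Ppbp, Vwf, Mpo, Lyz2, Itgam, Cd3e, Ptprc and Il7r were listed at 0 in all 7. The part of these markers in the results below was not tested. In RNA from whole cultures, a change in which cells were present and a change of RNA within each cell cannot be told apart.

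The respiratory chain passes electrons from NADH through complex I, or from succinate through complex II, by way of coenzyme Q to complex III, cytochrome c and complex IV, where oxygen is reduced. Complexes I, III and IV pump protons across the inner mitochondrial membrane, and complex V uses the gradient to make ATP. Most subunits are encoded in the nucleus, and a few hydrophobic ones in mitochondrial DNA. Erythroid precursors need mitochondria for heme and iron-sulfur cluster synthesis and discard them late in maturation. Promoters of many nuclear respiratory genes hold sites for NRF1, for the ETS factor GABPA and for YY1.

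The 250 bases before the RefSeq start are shown for 4 members, picked as examples and not typical in their motifs. Atp5k and Cox6a1 are among the 5 members, of 69 with a promoter, that hold the full NRF1 motif. Ndufc2 and Atp5o, which fell most under DTPA, hold no NRF1 match and are not shown. Cox7a1 had the largest rise under DTPA and Cox7a2 is its alternative isoform. Cox6a1 was the most abundant member of complex IV, and Atp5k was among the members of complex V that fell most. Capitals mark matches on either strand to the full NRF1 motif, which extends its core GCATGCG to a palindrome and stands alone in capitals in the Atp5k window. They also mark the ETS letters CCGGAAG and, for factors of the GATA family, the letters AGATAA, or the reverse complement of either. The letters AAGATGGC of YY1 were searched too and are in none of the 4 windows. The sequences are from RefSeq on GRCm38.p6, read 5′ to 3′ on the strand of the gene.
Cox7a1, chr7:30183921-30184170, plus strand: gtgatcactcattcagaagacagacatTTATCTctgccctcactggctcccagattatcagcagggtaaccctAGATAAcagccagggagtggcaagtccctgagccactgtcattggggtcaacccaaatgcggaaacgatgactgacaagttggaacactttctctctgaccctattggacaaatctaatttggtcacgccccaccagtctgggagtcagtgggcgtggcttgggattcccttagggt
Cox7a2, chr9:79759854-79760103, minus strand: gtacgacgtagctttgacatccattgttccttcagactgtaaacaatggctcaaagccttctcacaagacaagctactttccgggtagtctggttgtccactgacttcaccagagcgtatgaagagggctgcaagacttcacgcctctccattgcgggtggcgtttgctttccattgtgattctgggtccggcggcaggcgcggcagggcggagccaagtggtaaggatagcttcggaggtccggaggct
Atp5k, chr5:108434400-108434649, minus strand: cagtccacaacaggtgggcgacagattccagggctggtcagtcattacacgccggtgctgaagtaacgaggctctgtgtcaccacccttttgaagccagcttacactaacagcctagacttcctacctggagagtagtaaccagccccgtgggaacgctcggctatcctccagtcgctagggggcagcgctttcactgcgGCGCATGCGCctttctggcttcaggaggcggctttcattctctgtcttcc
Cox6a1, chr5:115348959-115349208, minus strand: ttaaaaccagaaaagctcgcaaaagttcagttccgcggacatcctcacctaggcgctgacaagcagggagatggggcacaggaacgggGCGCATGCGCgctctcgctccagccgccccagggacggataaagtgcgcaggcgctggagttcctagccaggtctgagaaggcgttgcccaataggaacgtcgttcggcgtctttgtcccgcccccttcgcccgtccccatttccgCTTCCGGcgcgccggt
The Cox7a1 window held GATA letters at 223 to 218 bases before the start, on the other strand, and at 177 to 172 bases, on the strand of the gene. The Cox7a2 window held none of these motifs. The Atp5k window held the NRF1 letters 50 to 41 bases before its start. Atp5k also has an ETS match in the longer stretch searched below, which is not within the bases shown. In the Cox6a1 window the NRF1 letters stood 162 to 153 bases before the start and the ETS letters 16 to 10 bases before it. A match describes the letters of a window and was not tested as a binding site.

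Under DTPA most of the chain was lower than in controls. Of the 81 members that reached 1 TPM in at least 3 of the 6 libraries at 24 h, 56 were lower, 5 were higher and 20 did not pass the test (limma on log2(TPM + 1), adjusted p below 0.05). The 56 are 69.1% of the tested members, and of all 11147 genes tested 36.4% were lower. The 5 are 6.17%, and of all genes 21.7% were higher. The members' median log2 fold change was -0.34, and that of all tested genes was -0.09. The members' median was -0.24 under median-of-ratios scaling and -0.20 under quantile normalization, where that of all genes was 0.0 and 0.01. The ratio of mean TPM, DTPA over control, had a median of 0.79 and ran from 0.496 to 3.3. In 58 members every DTPA library lay below every control library, which is 71.6% of those tested and 40.3% of all genes tested. In 5 members every DTPA library lay above, against 24.7% of all genes, and in 18 the groups overlapped. The 8 untested members were Cox4i2, Cox6a2, Cox7b2, Cox8b, Cox8c, Ndufa4l2, Ndufa11b and Ndufb4c, all at or near 0 at 24 h.

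The summed TPM of all 89 members was 21477, 21023 and 21391 in the DTPA libraries, 25953, 26094 and 24529 in the controls and 23917 at 0 h. The 3 DTPA sums lay below all others. By the ratio of sums, complex V differed most between DTPA and control, at 0.735, with sums of 3567 ± 64 TPM under DTPA and 4849.7 ± 65.3 TPM in controls (SD, n = 3 each), against 6155 TPM at 0 h. Complex IV differed least by that ratio, at 0.92, with 8760.2 ± 71.5 TPM under DTPA and 9525 ± 379 TPM in controls (SD, n = 3 each), against 7288 TPM at 0 h. Within complex IV the ratio was 0.837 for the 11 common subunits and 1.85 for the 9 isoforms and relatives. Only 3 of these 9 were high enough at 24 h to be tested. Cox7a1 had means of 661 TPM under DTPA and 200.1 TPM in controls. Cox7a2l had 418 and 265 TPM, and Cox6b2 had 358 and 311 TPM. The sums of the 13 mitochondrially encoded subunits overlapped between the groups, at 121852 to 139851 TPM under DTPA and 112316 to 128053 TPM in controls, with 128975 TPM at 0 h.

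**Figure D1:**
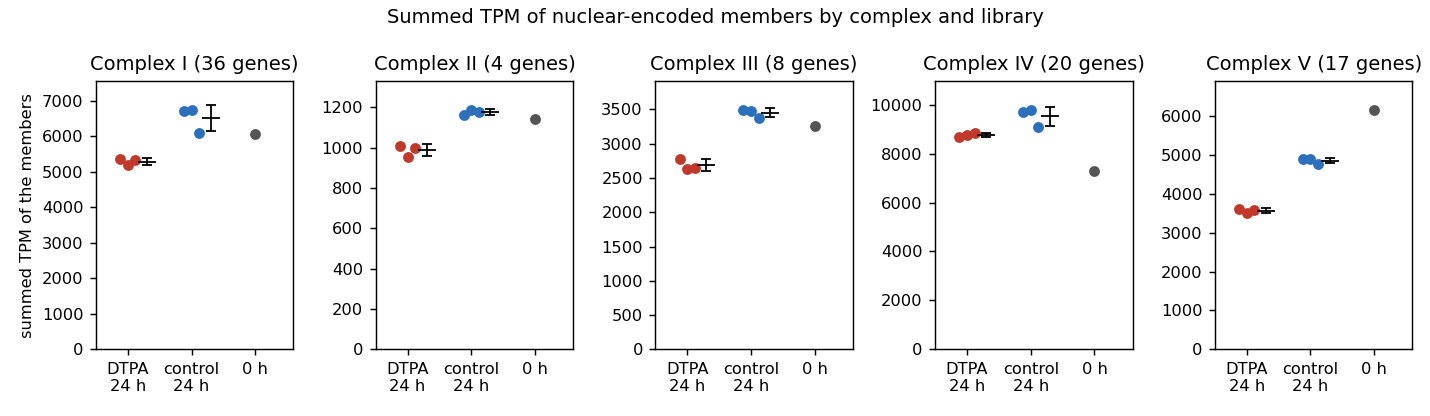
Summed TPM of the protein-coding members of each complex (vertical axis, from 0 in each panel) in each library, with DTPA at 24 h in red, control at 24 h in blue and 0 h in grey. Points are libraries and bars beside them are mean and SD (n = 3); in all 5 complexes the 3 DTPA libraries lie below the 3 controls, and for complex V the 0 h library, at 6155 TPM, lies above both groups.

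In complex I, which oxidises NADH, 23 of 36 members fell under DTPA, 1 rose and 12 did not pass, and the median change was -0.37 on the log2 scale. The 3 largest falls were in accessory subunits. Ndufc2, of the membrane arm, had 139, 133 and 139.7 TPM under DTPA, 272, 261 and 248 TPM in controls and 217 TPM at 0 h. Its fall of 0.92 on the log2 scale (SE 0.0461, adjusted p = 2.91e-06) left every DTPA library below the 0 h library as well. Ndufa5, of the matrix arm, had 68.3, 59.6 and 58.7 TPM under DTPA, 108, 117 and 115 TPM in controls and 194 TPM at 0 h. It fell by 0.86 (SE 0.0656, adjusted p = 2.39e-05), and its levels were lower at 24 h than at 0 h in all 6 libraries. Ndufb8, of the membrane arm, had 46.0, 45.3 and 48.3 TPM under DTPA, 87.1, 82.6 and 73.5 TPM in controls and 90.7 TPM at 0 h. The groups did not overlap, and it fell by 0.79 (SE 0.0674, adjusted p = 4.44e-05).

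The 7 core subunits of complex I in the nucleus carry its flavin and iron-sulfur clusters. Under DTPA 5 of these fell, 1 rose and 1 did not pass, and the median change was -0.3 on the log2 scale. The largest fall was in Ndufs8, an iron-sulfur subunit, by 0.55 (SE 0.0513, adjusted p = 7e-05), with 94.3 ± 5.09 TPM under DTPA and 138 ± 4.72 TPM in controls (SD, n = 3 each). Of the accessory subunits, 5 of 10 in the matrix arm and 13 of 19 in the membrane arm fell, and none was called higher. Ndufs6, a zinc-binding accessory subunit, had 52.7, 46.3 and 55.2 TPM under DTPA, 73.3, 72.5 and 72.8 TPM in controls and 96.5 TPM at 0 h, a fall of 0.50 (SE 0.0661, adjusted p = 0.000433). The most abundant member, Ndufa6, had 726, 666 and 672 TPM under DTPA and 759.9, 776 and 589 TPM in controls, and these groups overlapped. Its log2 fold change of -0.03 did not pass (adjusted p = 0.817). The other 11 that did not pass ran from -0.24 in Ndufs5 to 0.18 in Ndufa12. Ndufb2, an accessory subunit of the membrane arm, was the lowest of the complex, at 1.04 to 1.54 TPM under DTPA and 1.26 to 1.43 TPM in controls. The annotated exons of Ndufb2 cover 5628 bases, some shared with Gm42420 on the same strand and Braf on the other, so its level is uncertain.

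Complex II oxidises succinate and is encoded wholly in the nucleus. Under DTPA 3 of its 4 subunits fell, and the median change was -0.23 on the log2 scale. Sdhc, a membrane anchor, was the least abundant, with 26.0, 28.3 and 26.0 TPM under DTPA, 44.1, 42.1 and 44.1 TPM in controls and 80.9 TPM at 0 h. Its fall of 0.68 (SE 0.053, adjusted p = 2.72e-05) was the largest of the complex. Sdhd, the other anchor and the most abundant, had 778, 727 and 769 TPM under DTPA, 886, 910.2 and 912 TPM in controls and 578 TPM at 0 h, and it fell by 0.25 (SE 0.0396, adjusted p = 0.00106). The anchors stood far apart in TPM in every library, and in controls Sdhc was lower and Sdhd higher than at 0 h. Sdha, the flavoprotein, had 127, 126 and 127 TPM under DTPA, 145, 149 and 146 TPM in controls and 307 TPM at 0 h, and it fell by 0.21 against control (SE 0.0343, adjusted p = 0.00139). Under quantile normalization Sdha was at -0.03 and did not pass (adjusted p = 0.441). Sdhb, the iron-sulfur subunit, was at -0.12 with overlapping groups and did not pass (adjusted p = 0.119).

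Complex III passes electrons from reduced coenzyme Q to cytochrome c, and 7 of its 8 members fell, and the median change was -0.37 on the log2 scale. All 3 of the members classed as core fell, and their summed TPM was 466 ± 4.37 under DTPA and 693 ± 5.27 in controls (SD, n = 3 each), against 908 at 0 h. Uqcrc2, core protein 2, had 138, 125 and 129 TPM under DTPA, 234, 234 and 232 TPM in controls and 341 TPM at 0 h. It fell by 0.83 (SE 0.0446, adjusted p = 4.05e-06), and its control libraries lay within 3 TPM of each other. Uqcrc1, core protein 1, had 107, 118 and 116 TPM under DTPA, 177, 176 and 173 TPM in controls and 311 TPM at 0 h, a fall of 0.62 (SE 0.0448, adjusted p = 1.81e-05). Uqcrfs1, the Rieske iron-sulfur protein, fell by 0.36 (SE 0.0326, adjusted p = 5.94e-05). Among the small subunits, Uqcrb had 417, 341 and 336 TPM under DTPA, 541, 545 and 626 TPM in controls and 369 TPM at 0 h, and it fell by 0.65 (SE 0.0944, adjusted p = 0.000724). Uqcrh, the hinge protein and the most abundant member, had 794, 700.0 and 743 TPM under DTPA, 871, 867 and 885 TPM in controls and 429 TPM at 0 h. Both DTPA and control libraries stood above 0 h, and the fall against control was 0.23 (SE 0.0502, adjusted p = 0.00533). Under median-of-ratios scaling Uqcrh was at -0.13 and did not pass (adjusted p = 0.0701). The member that did not pass was Uqcrq, at -0.03 (adjusted p = 0.857), with overlapping groups.

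Complex V makes ATP on its F1 head as protons cross its membrane part, and 13 of its 17 members fell, 1 rose and 3 did not pass, and the median change was -0.37 on the log2 scale. In the F1 head, Atp5b, the catalytic β subunit, had 559.7, 560.1 and 569.8 TPM under DTPA, 973, 976 and 983 TPM in controls and 1552 TPM at 0 h. It fell by 0.79 against control (SE 0.032, adjusted p = 9.96e-07), with a spread within each group at 24 h of under 6 TPM (SD). Atp5a1, the α subunit, had 607, 562 and 589 TPM under DTPA, 745, 762 and 767 TPM in controls and 1331 TPM at 0 h, a fall of 0.37 (SE 0.0405, adjusted p = 0.000155). The α and β subunits occur in equal number in the enzyme. The TPM of Atp5b stood above that of Atp5a1 in all controls and below it in all 3 DTPA libraries, in replicate 2 by less than 2 TPM. The order of these genes in TPM depends on the gene lengths used, which are not given. Estimated reads were made from TPM and GENCODE M21 exon lengths, 4237 bases for Atp5b and 3135 for Atp5a1. They were higher for Atp5b in every library, but a longer gene collects more reads, so they do not settle the order. Atp5e, the small ε subunit of the same head, went the other way, with 64.9, 90.8 and 91.7 TPM under DTPA, 55.8, 42.2 and 66.2 TPM in controls and 32.4 TPM at 0 h. It was called higher by 0.59 (SE 0.185, adjusted p = 0.0271), but DTPA replicate 1 lay below control replicate 3. The call was lost without control replicate 2 (0.42), without DTPA replicate 2 (0.51), without DTPA replicate 3 (0.50), with no filter on low genes and with no variance trend (0.59 in both).

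In the peripheral stalk, which holds the head still, Atp5o, the oligomycin sensitivity protein, had 61.5, 57.9 and 58.4 TPM under DTPA, 119.6, 118 and 102 TPM in controls and 117 TPM at 0 h. It fell by 0.92 (SE 0.0677, adjusted p = 2.02e-05), while control and 0 h lay close together. Atp5o is a sum over a pair of annotated loci that share exon bases with each other, and 54.2% of the exon bases of the shorter one are shared with Donson, so its level is uncertain. Atp5h, the stalk subunit d, fell by 0.59 (SE 0.0326, adjusted p = 4.6e-06), with 415 ± 2.6 TPM under DTPA and 625 ± 9.56 TPM in controls (SD, n = 3 each). Atp5pb, the stalk subunit b, had 331 ± 14.6 TPM under DTPA and 335 ± 4.9 TPM in controls (SD, n = 3 each), and at -0.02 it did not pass (adjusted p = 0.767). All 5 small membrane subunits fell. Atp5k, subunit e, which helps dimers form, had 177, 165 and 180.1 TPM under DTPA, 318, 313 and 286 TPM in controls and 260.1 TPM at 0 h, a fall of 0.81 (SE 0.0543, adjusted p = 1.26e-05). The c ring, the rotor of the membrane part, is encoded by Atp5g1, Atp5g2 and Atp5g3, which give the same mature protein. Their summed TPM was 376 ± 6.97 under DTPA and 468 ± 25.9 in controls (SD, n = 3 each), against 818 at 0 h. Atp5g1 fell by 0.48 (SE 0.051, adjusted p = 0.000139) and Atp5g3 by 0.39 (SE 0.0545, adjusted p = 0.000603). Atp5g2 had 115, 127 and 119.5 TPM under DTPA and 129.9, 133 and 117 TPM in controls, and at -0.07 it did not pass (adjusted p = 0.353). Its share of the 3 was 32.1 ± 1.15% under DTPA and 27.1 ± 0.857% in controls (SD, n = 3 each), against 43.9% at 0 h.

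**Figure D2:**
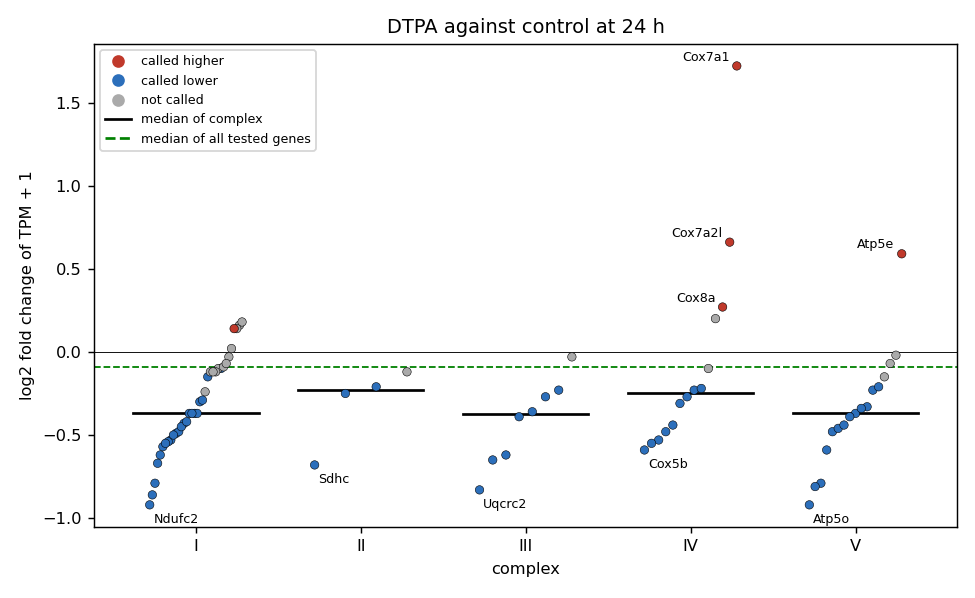
Log2 fold change of TPM + 1, DTPA over control at 24 h (vertical axis), for each tested protein-coding member by complex (horizontal axis, points ordered by value within a complex). Red points were called higher, blue points lower and grey points not called; black bars are the medians of the complexes, from -0.37 to -0.23, all below the dashed median of all tested genes at -0.09, and Cox7a1 stands apart at 1.72.

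Complex IV, which hands electrons to oxygen, had the most members called higher, with 9 of 14 tested members lower, 3 higher and 2 not past the test and a median change of -0.25 on the log2 scale. That median was -0.15 under median-of-ratios scaling and -0.09 under quantile normalization. Of its 11 common subunits 9 fell, and Cox8a alone was called higher. Cox5b, a zinc-binding subunit, had 624, 649 and 638 TPM under DTPA, 1018, 984 and 876 TPM in controls and 698 TPM at 0 h, a fall of 0.59 (SE 0.0589, adjusted p = 0.000101). The symbol Cox5b-ps had 302, 346 and 291 TPM under DTPA and 472, 515 and 516 TPM in controls, so reads may be split between the gene and this copy. With both added together, Cox5b fell by 0.62 (adjusted p = 2.52e-05). Ndufa4, a late-joining subunit, had 201, 200.0 and 198 TPM under DTPA, 295, 294 and 289 TPM in controls and 327 TPM at 0 h, and it fell by 0.55 (SE 0.0326, adjusted p = 6.9e-06). Cox6a1, the most abundant member, had 1758, 2046 and 1959.6 TPM under DTPA, 2451, 2568 and 2156 TPM in controls and 1009 TPM at 0 h. It fell by 0.31 against control (SE 0.0806, adjusted p = 0.0115), a call lost under median-of-ratios scaling (-0.21, adjusted p = 0.0812), and all 6 libraries at 24 h stood above 0 h. Cox4i1, which sits beside the catalytic core, had 767, 758 and 763 TPM under DTPA and 837, 835 and 779.9 TPM in controls. At -0.10 it did not pass (adjusted p = 0.0668). Cox8a had 1596, 1502 and 1588 TPM under DTPA, 1349, 1326 and 1216 TPM in controls and 1119 TPM at 0 h, a rise of 0.27 (SE 0.0512, adjusted p = 0.0028). Under quantile normalization its value was -0.0037, so its direction depends on the scaling.

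The subunit 7a isoforms moved apart. Cox7a1, known as the heart and muscle isoform, lies at chromosome 7, 30184144 to 30186078 (mm10). It had 696, 633 and 653 TPM under DTPA, 195, 209 and 196 TPM in controls and 12.3 TPM at 0 h. The 3 groups did not overlap, and the rise under DTPA was 1.72 against control (SE 0.0493, adjusted p = 2.26e-07), a ratio of 3.3. Estimated reads were 2304 to 2597 under DTPA, 614 to 653 in controls and 39 at 0 h. Cox7a2, the isoform of most tissues, lies at chromosome 9, 79755361 to 79759878, and had 255, 231 and 242 TPM under DTPA, 349, 354 and 348 TPM in controls and 340.4 TPM at 0 h. It fell by 0.53 (SE 0.044, adjusted p = 3.78e-05), with control and 0 h close together. Of the TPM of Cox7a1 and Cox7a2 together, Cox7a1 held 73.1 ± 0.121% under DTPA and 36.3 ± 0.73% in controls (SD, n = 3 each), against 3.5% at 0 h. Cox7a2l, a related protein that joins complexes III and IV in supercomplexes, had 409, 424 and 422 TPM under DTPA, 268, 278 and 249 TPM in controls and 216 TPM at 0 h. It rose by 0.66 (SE 0.0482, adjusted p = 1.94e-05), with no overlap.

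By the main test no other tissue-restricted isoform was called higher under DTPA than in controls. Like Cox7a1, Cox6b2 stood above 0 h in both groups at 24 h. Cox6b2, known from testis, had 311, 396 and 368 TPM under DTPA, 302, 324 and 307 TPM in controls and 49.0 TPM at 0 h. Against control it was at 0.20 and did not pass (SE 0.0849, adjusted p = 0.0833). It passed under both other scalings (0.30 and 0.35) and with a replicate block (0.20). It also passed with mitochondrial genes left out of the scaling (0.22) and without DTPA replicate 1 (0.29). Its common partner Cox6b1 had 1289.8, 1199.6 and 1222 TPM under DTPA, 1659, 1666 and 1699 TPM in controls and 1419 TPM at 0 h, a fall of 0.44 (SE 0.0405, adjusted p = 6.52e-05). Of the pair, Cox6b2 held 22.5 ± 2.76% under DTPA and 15.7 ± 0.531% in controls (SD, n = 3 each), against 3.34% at 0 h. Cox4i2 and Cox6a2, known from lung and from muscle, had at most 2 estimated reads in a library, and Cox7b2, Cox8b and Cox8c were listed at 0 in all 7. Ndufa4l2, a relative of Ndufa4 known as a hypoxia-induced gene, had 0, 0.13 and 0 TPM under DTPA, 0.45, 0.47 and 0.62 TPM in controls and 25.0 TPM, or 162 estimated reads, at 0 h. Its levels at 24 h were too low to be tested between DTPA and control.

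**Figure D3:**
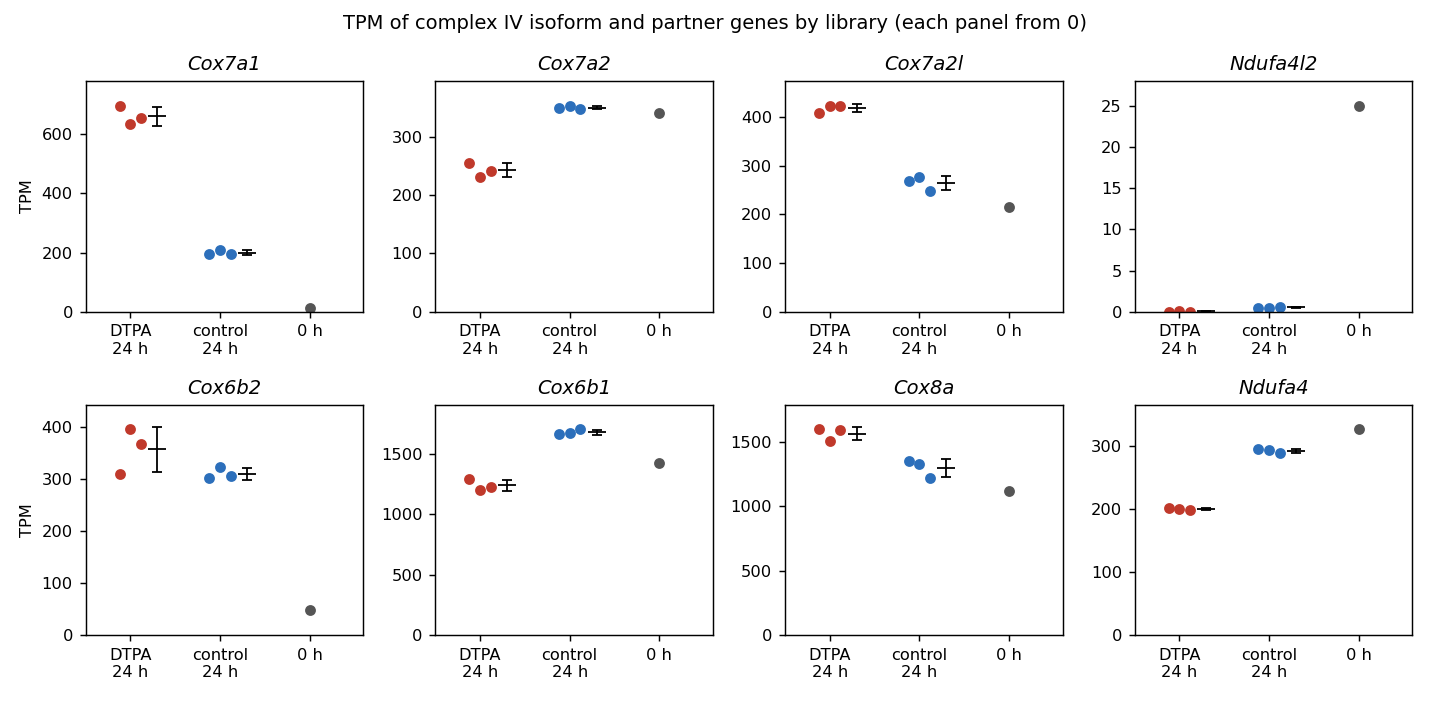
TPM of 8 complex IV genes by library (vertical axis, from 0 in each panel), with DTPA at 24 h in red, control at 24 h in blue, 0 h in grey and mean with SD beside each group (n = 3). Cox7a1 steps up between all 3 groups, Cox7a2, Cox6b1 and Ndufa4 are lower under DTPA than in controls, and Ndufa4l2 is near 0 in all 6 libraries at 24 h.

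Some members share sequence or exons with other genes, and their values are less certain. Ndufa12 had 26.3 to 59.1 TPM under DTPA and 31.0 to 61.9 TPM in controls, and its libraries scattered within both groups. Its copy Ndufa12-ps had 221, 113 and 113 TPM under DTPA, 343, 230.3 and 360.0 TPM in controls and 857 TPM at 0 h. Ndufs5 likewise had 43.4 ± 4.55 TPM under DTPA and 51.8 ± 8.84 TPM in controls (SD, n = 3 each), while Ndufs5-ps had 229 to 302 TPM under DTPA and 327 to 353 TPM in controls. Neither parent gene passed the test between DTPA and control. With each -ps symbol added to its parent, 5 members were higher and 58 lower. Of the protein-coding members, 28 share exon bases with a gene on the other strand and 5 with another annotated gene on the same strand. The kit keeps the strand, and whether the counting used it is not given in the sources used here.

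After 24 h of differentiation without DTPA the members had moved in both directions. Against 0 h, 83 members were tested in a fit of all 7 libraries, in which the lone 0 h library is assumed to vary like the others. Calls were limited to genes that passed the same test and moved by 1 or more on the log2 scale. By this rule 8 members (9.64%) were higher and 8 (9.64%) lower, where 15.1% and 24.3% of the 11906 genes tested were. By adjusted p alone, 30 were higher and 33 lower, against 30.9% and 43.6% of all genes. The members' median log2 fold change was 0.01 and that of all genes was -0.22. The members' median was -0.06 without control replicate 2 and 0.16 under median-of-ratios scaling.

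The largest rises were in complex IV. Cox7a1 rose by 3.91 (adjusted p = 4.12e-07) and Cox6b2 by 2.64 (adjusted p = 1.12e-05), a ratio of 16.2 and of 6.35 in mean TPM. Ndufa6, of complex I, had 759.9, 776 and 589 TPM in controls and 191 TPM at 0 h, a rise of 1.88 (adjusted p = 0.000109). Cox6a1 rose by 1.24 (adjusted p = 0.000221), and Atp5j2, subunit f of the synthase, by 1.18 (adjusted p = 2.17e-05). Ndufb10, of the complex I membrane arm, rose by 1.15 (adjusted p = 3.59e-05). The other members called higher were Ndufa3 and Uqcrh. Summed over complex IV, TPM was 9525 ± 379 in controls (SD, n = 3), against 7288 at 0 h.

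The falls included the catalytic subunits of complex II and a core subunit of complex I. Under median-of-ratios scaling Sdha (-0.90), Sdhb (-0.93) and Ndufa10 (-0.91) stayed under the limit of 1 and were not called. Ndufa4l2 fell by 4.11 (adjusted p = 2.27e-06), a value that rests on 3 to 4 estimated reads in controls and on the pseudocount. Atp5g2 had 129.9, 133 and 117 TPM in controls and 359 TPM at 0 h, and it fell by 1.5 (adjusted p = 2.14e-05). Ndufs7, a core iron-sulfur subunit of complex I, had 73.5, 72.8 and 58.0 TPM in controls and 173 TPM at 0 h, a fall of 1.34 (adjusted p = 0.000297). In complex II, Sdhb fell by 1.09 (adjusted p = 5.32e-05) and Sdha by 1.06 (adjusted p = 2.28e-06). Ndufa10, of complex I, fell by 1.07 (adjusted p = 3.14e-06). Atp5c1, the γ shaft of the synthase, and Cox7c were the other 2 called lower. By adjusted p alone, all 7 core subunits of complex I were lower, whose sums were 834 ± 17.9 TPM in controls (SD, n = 3), against 1269.8 TPM at 0 h. In the 19 accessory subunits of the membrane arm, 9 were higher and 5 lower by the same rule. The F1 head summed to 2182 ± 4.76 TPM in controls (SD, n = 3), against 3708 TPM at 0 h, and the 5 small membrane subunits of the synthase to 976 ± 33.4 TPM, against 722 TPM at 0 h.

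**Figure D4:**
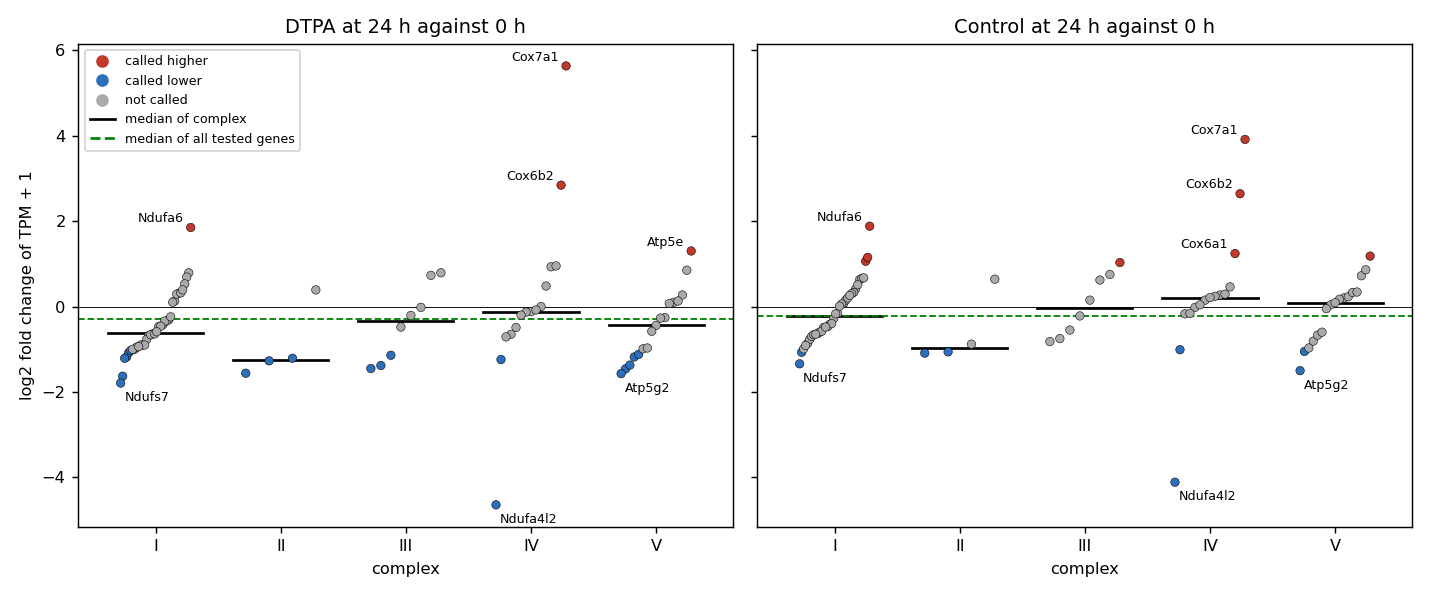
Log2 fold change of TPM + 1 against the single 0 h library (vertical axis) for each tested protein-coding member by complex (horizontal axis), for DTPA at 24 h on the left and control at 24 h on the right. Red and blue points passed the test and moved by 1 or more; Cox7a1 lies at 5.63 under DTPA and 3.91 in controls, and the dashed medians of all tested genes are -0.3 and -0.22.

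DTPA against 0 h uses the same 0 h library as the comparison above and the same DTPA libraries as the first, so its values are given beside those and are no separate evidence. Of 82 members tested, 4 (4.88%) were higher and 19 (23.2%) lower, where 15.7% and 27.6% of 12016 genes were. By adjusted p alone 18 were higher and 48 lower, against 29.9% and 46.6% of all genes. The median was -0.47, against -0.3 for all genes. The 4 members called higher were Cox7a1 at 5.63 (adjusted p = 1.67e-07), Cox6b2 at 2.84, Ndufa6 at 1.85 and Atp5e at 1.30 (adjusted p = 0.00739). Among the 19 called lower, Ndufa4l2 was at -4.64 (adjusted p = 1.13e-06), with at most 1 estimated read in a DTPA library, and Ndufs7 at -1.79 (adjusted p = 7.13e-05). Ndufa5 was at -1.63, Atp5g2 at -1.57, Sdhc at -1.56 and Atp5b at -1.46. These 19 included 3 of the 4 complex II subunits, 3 of the 8 members of complex III and 4 of the 5 parts of the F1 head. The F1 head summed to 1559 ± 24.4 TPM under DTPA (SD, n = 3), against 3708 TPM at 0 h.

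The genes that surround the chain were read from lists of known function, for DTPA against control, where 21.7% of all genes were higher and 36.4% lower. Of 12 further nuclear genes for subunits, electron carriers and related proteins, 9 were lower and 1 higher (median log2 fold change -0.35). They include Cyc1, of complex III, at -0.38 (adjusted p = 0.000257), and Foxred1, which is also counted with the complex I assembly factors. The largest fall among the 12 was in Etfb, of the electron transfer flavoprotein, with 12.2 ± 1.41 TPM under DTPA and 22.2 ± 2.75 TPM in controls (SD, n = 3 each), at -0.81 (adjusted p = 0.000485). Etfdh, which passes those electrons to coenzyme Q, was at -0.51 (adjusted p = 0.000229), and Gpd2, the mitochondrial glycerol phosphate dehydrogenase, at -0.40 (adjusted p = 0.00122). Of the 13 mitochondrially encoded subunits none was lower and 1 was higher, with a median of 0.15. That gene was mt-Co1, the catalytic subunit of complex IV, with 34462, 31157 and 31498 TPM under DTPA, 26717, 25677 and 29303 TPM in controls and 18859.8 TPM at 0 h. Its log2 fold change of 0.25 (adjusted p = 0.0185) no longer passed without control replicate 1 (0.24) or control replicate 2 (0.21), with no filter on low genes (0.25, adjusted p = 0.529) or under quantile normalization, where it was 0.03 (adjusted p = 0.728). Levels of the 13 genes lay far apart, and mt-Co3 had 48.5 to 115 TPM under DTPA and 42.4 to 67.6 TPM in controls. How evenly the libraries captured these transcripts was not tested, and the treatment of reads with several matches is not given.

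Assembly factors, which build the complexes and are not part of them, were mixed. Of 18 for complex I, 9 were lower and none higher (median -0.22), led by Ndufaf7, a methyltransferase, at -0.61 (adjusted p = 0.00165). Tmem126a was at -0.42 (adjusted p = 0.00184) and Ndufaf3 at -0.40 (adjusted p = 0.00808), a call lost under quantile normalization (-0.25, adjusted p = 0.0775). Of 9 for complexes II and III, 3 were lower and 3 higher (median -0.10). Uqcc3, which acts early in complex III, had 58.7, 63.1 and 62.2 TPM under DTPA, 157, 156 and 141 TPM in controls and 135 TPM at 0 h, and it fell by 1.28 (SE 0.0553, adjusted p = 1.38e-06). Bcs1l, which inserts the Rieske protein, was at -0.61 (adjusted p = 0.00129), and Uqcc2 at -0.44 (adjusted p = 0.000165). Of 26 for complex IV, 12 were lower and 3 higher (median -0.14). Cox20, a chaperone of the mitochondrially encoded subunit 2, had 25.8, 27.8 and 27.9 TPM under DTPA, 49.2, 55.9 and 57.9 TPM in controls and 59.6 TPM at 0 h, and it fell by 0.97 (SE 0.0703, adjusted p = 1.81e-05). Higd1a fell by 0.70 (adjusted p = 9.96e-05). Coa6, which helps deliver copper, was higher by 0.62 (adjusted p = 0.0233), a call lost without DTPA replicate 1 (0.50) and with no filter on low genes (0.62). Of 6 for complex V, 4 were lower and none higher (median -0.49), with Fmc1 at -0.77, Tmem242 at -0.71 and Atpaf2 at -0.53.

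Of 11 genes of coenzyme Q synthesis, 7 were lower and 1 higher (median -0.27). Coq3, a methyltransferase of the pathway, had 6.03, 5.93 and 6.08 TPM under DTPA, 13.1, 14.4 and 16.0 TPM in controls and 17.2 TPM at 0 h, and it fell by 1.14 (SE 0.0854, adjusted p = 2.19e-05). Coq7 was at -0.67 (adjusted p = 0.00066) and Pdss1 at -0.63 (adjusted p = 0.00607). Of 20 genes of protein import, cristae and the outer membrane, 16 were lower and 1 higher (median -0.42). Vdac1, the main outer membrane channel, had 169, 172 and 171 TPM under DTPA, 340.1, 347 and 359 TPM in controls and 349 TPM at 0 h, and it fell by 1.03 (SE 0.0362, adjusted p = 5.41e-07). Timm23, the inner membrane import channel, fell by 0.84 (adjusted p = 7.26e-05), and Chchd6, of the cristae junction complex, by 1.04 (adjusted p = 0.000293).

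**Figure D5:**
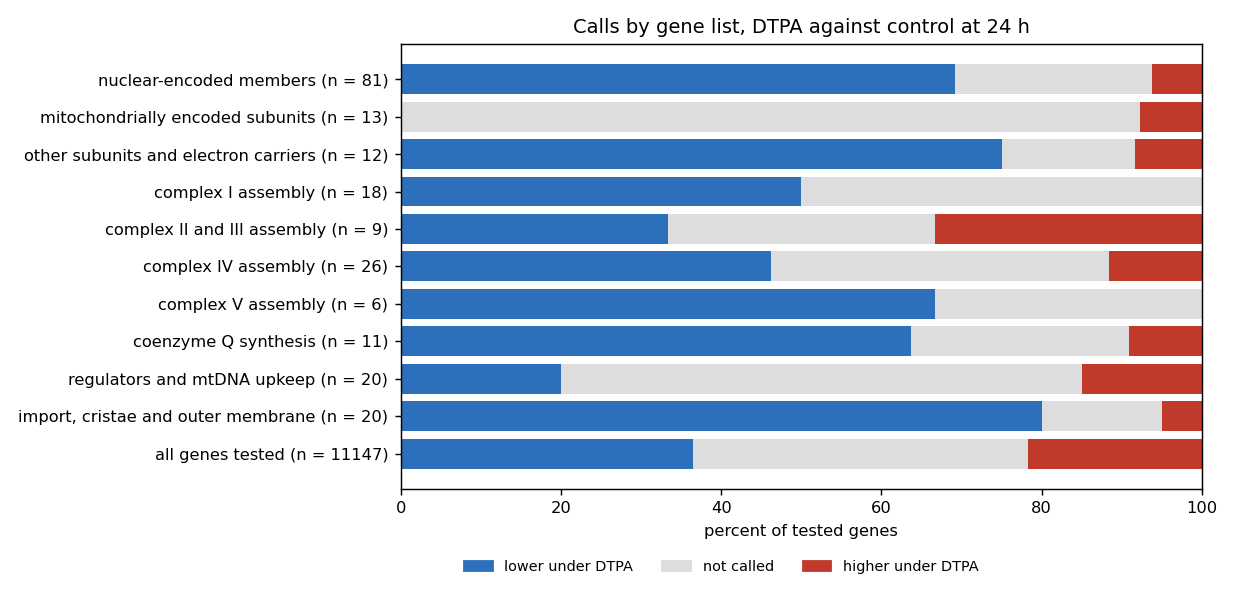
Percent of tested genes called lower (blue), not called (light grey) and called higher (red) in DTPA against control at 24 h (horizontal axis), for the members and for each list of related genes, with the number tested in brackets. Of the members 69.1% were lower, against 36.4% of all 11147 genes in the bottom row, and none of the 13 mitochondrially encoded subunits was.

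Of 20 regulators of respiratory gene transcription and mitochondrial DNA, 4 were lower and 3 higher (median -0.08). Nrf1, the factor named for these promoters, had 7.47, 8.14 and 8.18 TPM under DTPA, 20.2, 19.6 and 20.0 TPM in controls and 21.5 TPM at 0 h. It fell by 1.23 (SE 0.0623, adjusted p = 3.06e-06), with control and 0 h close together. Gabpb1, the partner through which the ETS factor Gabpa activates, had 13, 12.5 and 12.7 TPM under DTPA, 22.5, 22.7 and 25.2 TPM in controls and 18.5 TPM at 0 h, a fall of 0.83 (SE 0.0629, adjusted p = 2.23e-05). Gabpa itself had 23.3 ± 0.31 TPM under DTPA and 24.9 ± 0.506 TPM in controls (SD, n = 3 each), and at -0.09 it did not pass (adjusted p = 0.125). Yy1, a zinc finger factor that binds promoters of respiratory chain genes, was higher, with 71.4 ± 1.81 TPM under DTPA and 57.3 ± 1.59 TPM in controls (SD, n = 3 each), a rise of 0.31 (SE 0.0428, adjusted p = 0.000523). Myc was higher too, with 28.9, 31.2 and 31.6 TPM under DTPA and 15.0, 14.7 and 14.9 TPM in controls, against 474 TPM at 0 h. Its rise against control was 0.99 (SE 0.0547, adjusted p = 4.6e-06), and both groups were far below 0 h. Ppargc1a, a coactivator of mitochondrial genes in muscle and fat, was listed at 0 in all 7 libraries. Whether these levels bear on the members was not tested.

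RefSeq gave a promoter for 69 members, searched from 250 bases before to 50 after the start on both strands. The full NRF1 motif was in 5 of them, or 7.25%, against 1.07% of the 27025 genes in the table and 2.77% of the 7692 that were expressed. These were Atp5g2, Atp5k, Cox6a1, Ndufa11 and Uqcrc1. Under DTPA, Atp5k, Cox6a1, Ndufa11 and Uqcrc1 fell, by 0.81, 0.31, 0.53 and 0.62, and Atp5g2 did not pass. Of all tested members, with or without the motif, 69.1% fell. The Cox6a1 call was lost under median-of-ratios scaling. A link between the motif and the change was not tested. The inner letters GCATGCG, which the full motif holds, were in 11 (15.9%), against 8.35% of expressed genes. YY1 letters AAGATGGC were in 10 (14.5%), against 6.46% of expressed genes. ETS letters CCGGAAG were in 17 (24.6%), the same share as in expressed genes. GATA letters AGATAA were in 6 (8.7%), against 7.66% of expressed genes. Of these, Cox7a1 rose under DTPA, and Atp5g1 (-0.48), Atp5g3 (-0.39), Cox7c (-0.22) and Ndufc2 (-0.92) fell. The remaining carrier, Ndufa12, did not pass.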

How the data were processed

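Polyadenylated RNA was sequenced from 7 libraries with a stranded kit, per the labels' protocols. The deposited values are TPM made by the authors, 1 per row of a gene symbol and library. The submitters' processing notes name Trimmomatic 0.33, FastQC, HISAT2 2.1.0, featureCounts, edgeR and build mm10. The annotation release, strand setting, treatment of reads with several matches and gene lengths are not given in the sources used here. TPM is relative, so abundant genes that rise lower all others.

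The 234 rows of repeated symbols were summed, which left 55367 symbols. Depth was estimated from low TPM and GENCODE M21 exon lengths. By library, 99.0% to 99.4% of low values lay within 0.1 of a whole read, and 1 read in 1 kb was worth 0.1392 to 0.1715 TPM. Counting error at these depths was not added to the SDs, which cover the spread between libraries. Coordinates are from GENCODE M21 on mm10, where 87 members matched by symbol and 2 through a synonym.

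Values were tested as log2(TPM + 1) in limma 3.58.1 (R 4.3.3), two-sided, with a variance trend and Benjamini-Hochberg adjustment over all tested genes. Fold changes are on that scale, which understates low genes. DTPA against control used 6 libraries and genes of at least 1 TPM in 3. Comparisons with 0 h used all 7 libraries and genes whose mean reached 1 TPM in either group. The labels' replicate numbers did not pair the libraries (correlation of deviations -0.010, 0.024 and -0.010).

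The genes named are the most abundant of each complex, up to 3 called members a complex with the largest rise and fall under DTPA, the 6 largest each way against 0 h, the isoform families and up to 3 called genes of each list. Zinc-binding subunits, members with copies or shared exons, subunits named to fill out a group, and Gata1, Gabpa, Yy1, Ppargc1a and mt-Co3 were added after their values were seen. The members, lists and tests were chosen with earlier results of these data known. Some genes are not reported here by name.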

Additional observations from a re-analysis of the deposited data

How the results depend on the processing

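For DTPA against control the members called higher numbered 5, and 8 under median-of-ratios scaling and 8 under quantile normalization. Leaving out 1 library gave 3 to 6 higher and 53 to 60 lower, with 3 without control replicate 2. The members called lower numbered 47 under median-of-ratios scaling and 46 under quantile normalization. These scalings moved the median of all genes by about 0.1 and their calls to 3078 higher and 3288 lower, and to 3190 higher and 3112 lower, against 2415 and 4059. A replicate block gave 6 higher and 55 lower, with Cox6b2 then past the threshold (0.20, adjusted p = 0.0414), as under median-of-ratios scaling (0.30) and quantile normalization (0.35), and Ndufa10 no longer (-0.10, adjusted p = 0.0926). For control against 0 h, 3 were lower under median-of-ratios scaling and 5 with globin genes left out of the scaling, and adjusted p alone gave 30 higher and 33 lower. For DTPA against 0 h, median-of-ratios scaling gave 9 higher and 10 lower, and adjusted p alone 18 and 48. All-gene calls there moved to 2402 higher and 2686 lower, against 1888 and 3318. The cause was not tested. The gene values that changed sign were all for DTPA against control and all small. Under median-of-ratios scaling Ndufa6 was 0.07, Atp5g2 0.03, Ndufa10 0.00016 and Cox4i1 0.0024. Under quantile normalization Ndufa6 was 0.01, Atp5g2 0.10, Sdhb 0.04, Ndufa10 0.08 and Cox8a -0.0037. Ndufa6 was 0.00014 with globin genes left out of the scaling, and ran from -0.16 to 0.04 when 1 library was left out (0.03 without control replicate 1, 0.04 without control replicate 2 and -0.16 without control replicate 3). Of 1019 values for 60 genes in that comparison, 973 kept their direction and side of the threshold, and of 192 and 160 against 0 h, 188 and 160 did. The call of Ndufa10 as lower under DTPA (-0.10, adjusted p = 0.0434) was lost under most of the alternatives. Without control replicate 3, Ndufa6 (-0.16), Sdhb (-0.17) and Cox4i1 (-0.13) were called lower.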
